A study of Homo sapiens with 24 samples.

Results

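Expression of 10 genes that set how many mitochondria a cell makes and how they divide was examined in triple-negative breast cancer (TNBC) cells. The genes were PPARGC1A, PPARGC1B, NRF1, ESRRA, TFAM, TFB2M, POLRMT, POLG, OPA1 and DNM1L. They were chosen by symbol, as upstream regulators of oxidative phosphorylation (OXPHOS), and all 10 were listed in each of the 4 expression tables, among 13424 symbols that the tables shared. RNA-Seq was performed on 24 libraries of 8 groups, with 3 biological replicates in each group. Hs578T and HCC70, both wild-type TNBC lines, were sorted into breast cancer stem-like cells (BCSCs), which were CD24-CD44+ and ALDH+, and non-BCSCs, which lacked both markers. MDA-MB-231 cells, also a TNBC line, received control sgRNA (sgCtrl) or KIF20A sgRNA #1 (sg1) by lentivirus, and the labels call the sg1 cells a knockdown. A separate set of MDA-MB-231 cells carried an empty control vector (EV) or was labelled KIF20A overexpression (OE). KIF20A encodes a mitotic kinesin, and the study asked how it bears on BCSCs and OXPHOS. Each cell line or experiment was 1 batch of its own by the labels, so the sorted lines could not be told apart from their batches.

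PPARGC1A and PPARGC1B encode PGC-1α and PGC-1β, coactivators that bind no DNA themselves and switch on mitochondrial genes through transcription factors such as NRF1 and the estrogen-related receptor ERRα (ESRRA). NRF1 binds promoters of respiratory subunits and of TFAM and TFB2M, whose proteins, with the polymerase POLRMT, transcribe the mitochondrial genome. POLG replicates that genome. OPA1 fuses the inner membrane and shapes cristae, while DNM1L (DRP1) constricts mitochondria for fission, and the balance of both has been tied to respiration and to stem-like states in tumors.

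Libraries of the sorted lines held 24681218 to 33715701 reads, those with sgCtrl or sg1 held 41424338 to 51018667, and the EV and OE set held 15971297 to 22182293. KIF20A was 1.37-fold higher in Hs578T BCSCs and 1.75-fold higher in HCC70 BCSCs than in their non-BCSCs. It was 153, 173 and 156 deposited CPM with sgCtrl against 122, 145 and 91.1 with sg1 (limma adjusted p = 0.69), and 101, 143 and 124 CPM with EV against 1348, 269 and 896 with the OE label. Those last libraries went against their labelled line. The summed level of 11 markers of MDA-MB-231 and mesenchymal TNBC was 8594 to 9201 CPM with EV and 457 to 893 CPM with the OE label, and CD44, one of the sorting markers, was 523 to 788 CPM against 0.125 to 1.23 CPM. In the same libraries 8 markers of embryonic kidney lines summed to 1452 to 2028 CPM against 0.143 to 1.29 CPM with EV, where IRS4, LIN28B, NEFL and PAX2 were listed at 0 in every library. A difference between these groups therefore cannot be told apart from a difference between kinds of cells, and they are called the libraries labelled KIF20A OE below. The sgCtrl and sg1 libraries held the MDA-MB-231 markers at 8064 to 9422 deposited CPM, with the embryonic kidney list at no more than 0.202. In the HCC70 libraries 8 basal epithelial markers summed to 8989 to 10198 TPM, and in Hs578T the mesenchymal list summed to 9367 to 10022 TPM.

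The promoters of the regulators were examined for the binding sequences of their own pathway, since NRF1 and ERRα are members of the group. RefSeq promoter windows on GRCh38.p14, from 250 bases before to 50 bases after a RefSeq start, were held for 9 of the 10 genes. There was none for NRF1, and PPARGC1A had windows at separate starts. The NRF1 sequence GCGCANGCG occurred on either strand in 5 of 9 genes (55.6%), against 7.52% of 35116 windows and 23 of 66 (34.8%) nuclear OXPHOS subunits with a window. The 5 sites are shown with their flanks, 5′ to 3′ in the direction of the gene, and the capitals mark the letters that matched, overlapping matches being joined. The other windows lie at chr1:246566212-246566511 on the minus strand for TFB2M, and on the plus strand at chr11:64305274-64305573 for ESRRA and chr3:193592958-193593257 for OPA1.
TFAM: cgctctcccgCGCCTGCGCcaattccgcc
TFB2M: ctccgctgttCGCATGCGCaggctctagt
POLRMT: ggcggcgcggGCGCATGCGCAGGCGcggg
ESRRA: tcgtccgggcGCGCAGGCGccgcccgccc
OPA1: gacgcactgtGCGCATGCGCtggtcctcc
The ETS sequence CCGGAAGT, bound by GABPA, occurred in POLRMT alone, against 4.14% of all windows, and the ERR sequence TNAAGGTCA in none of 9, against 0.951%. No match was found in the windows of PPARGC1A, PPARGC1B, POLG and DNM1L. These matches describe letters and no binding. The whole windows of TFAM (chr10:58385160-58385459, plus strand) and POLRMT (chr19:633488-633787, minus strand) are given because both carry the NRF1 sequence, while POLRMT and not TFAM was called in the libraries labelled KIF20A OE.
TFAM: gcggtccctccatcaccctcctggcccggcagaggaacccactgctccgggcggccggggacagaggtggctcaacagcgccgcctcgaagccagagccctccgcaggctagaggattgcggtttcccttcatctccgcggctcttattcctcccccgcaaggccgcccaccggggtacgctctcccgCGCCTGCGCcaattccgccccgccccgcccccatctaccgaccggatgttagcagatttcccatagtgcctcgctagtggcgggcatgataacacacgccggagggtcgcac
POLRMT: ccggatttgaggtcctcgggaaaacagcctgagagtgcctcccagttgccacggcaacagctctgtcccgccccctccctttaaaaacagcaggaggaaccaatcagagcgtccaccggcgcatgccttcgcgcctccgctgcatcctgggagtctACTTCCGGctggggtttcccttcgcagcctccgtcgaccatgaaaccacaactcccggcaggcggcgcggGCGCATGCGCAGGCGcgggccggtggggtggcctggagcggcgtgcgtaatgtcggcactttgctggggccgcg
In POLRMT the capitals mark the ETS match on the reverse strand, which began at -94 from the start, and 3 overlapping NRF1 matches, which began at -24, -23 and -18.

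The levels of the regulators were first set side by side in the sorted lines. In TPM, which is per transcript length, DNM1L was highest in Hs578T with 88.2 to 106 TPM, followed by OPA1 with 51.3 to 57.4, whereas in HCC70 OPA1 led with 99.3 to 115 TPM and DNM1L followed with 49.0 to 53.0. Within each library the ratio of OPA1 to DNM1L was 0.511 to 0.582 in Hs578T and 1.96 to 2.31 in HCC70. The coactivators also changed places. PPARGC1A was 0.252 to 0.397 TPM in Hs578T, from only 21 to 35 reads a library, and 1.90 to 2.73 TPM in HCC70, while PPARGC1B was 2.97 to 3.34 and 1.21 to 1.60 TPM. POLRMT was 22.3 to 32.5 TPM in Hs578T and 6.74 to 8.86 TPM in HCC70, a ratio of 3.45. The ranges of the lines did not overlap for 8 of the 10 genes, TFAM and ESRRA being the exceptions, against 78.7% of 14181 genes, so the share is near the background. These levels were not tested, because the tables were normalized separately. Among neighbors in the order of levels, POLG and TFAM, and ESRRA, POLRMT and TFB2M, overlapped in Hs578T non-BCSCs, as did TFB2M, ESRRA and TFAM in HCC70 non-BCSCs.

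**Figure D1:**
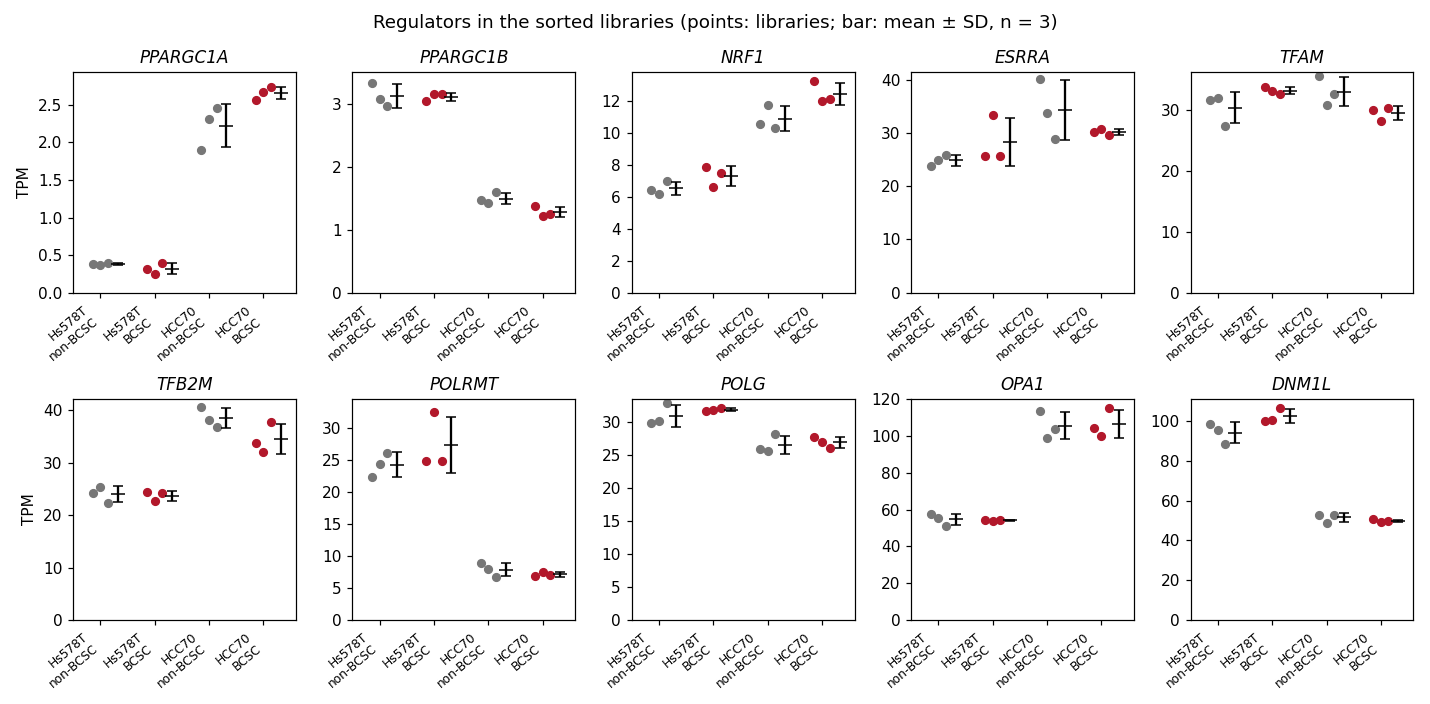
TPM of the 10 regulators in sorted cells, with 1 point a library and the mean ± SD of 3 libraries beside it. Gray points are non-BCSCs and red points BCSCs. OPA1 and DNM1L have opposite orders in Hs578T and HCC70, and POLRMT lies between 22.3 and 32.5 TPM in Hs578T and between 6.74 and 8.86 TPM in HCC70.

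Sorting for BCSCs moved none of the regulators past the threshold in either line. An adjusted p under 0.05 by limma was reached by 0 of 9 regulators tested in Hs578T, where 7.15% of all genes passed, and by 0 of 10 in HCC70, where 2.83% passed. Of all genes 2.9% were called higher and 4.26% lower in Hs578T, and 2.28% higher and 0.552% lower in HCC70. At an unadjusted p under 0.05 there were 0 regulators in Hs578T and 1 in HCC70, against 22.5% and 23.7% of all genes. The estimate was above 0 for 6 of 9 regulators in Hs578T (45.4% of all genes) and below 0 for 3 (54.6%), and in HCC70 it was above 0 for 4 of 10 (56%) and below 0 for 6 (44%). edgeR and DESeq2 on recovered reads called DNM1L in Hs578T and no regulator in HCC70. As in any bulk sample, fewer cells of a type and less RNA per cell cannot be told apart.

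The coactivators were low in both sorts. PPARGC1A was 0.38, 0.363 and 0.397 TPM among Hs578T non-BCSCs and 0.32, 0.252 and 0.394 TPM in BCSCs, below the minimum for testing. In HCC70 it was 1.90, 2.31 and 2.45 TPM among non-BCSCs and 2.57, 2.67 and 2.73 TPM in BCSCs, so that all BCSC libraries lay above all others, with a log2 fold change of 0.19 (SE 0.11, 95% CI -0.06 to 0.43, limma adjusted p = 0.322). PPARGC1B lay the other way in HCC70, with 1.47, 1.42 and 1.60 TPM among non-BCSCs and 1.37, 1.21 and 1.25 in BCSCs (limma adjusted p = 0.494). The ratio of PPARGC1B to PPARGC1A, which does not depend on library scaling, was thus 0.616 to 0.772 in HCC70 non-BCSCs and 0.455 to 0.535 in BCSCs, without overlap. In Hs578T the mean TPM of PPARGC1B was 3.13 ± 0.188 for the non-BCSCs and 3.11 ± 0.0641 for the BCSCs (SD, n = 3).

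Of the transcription factors, NRF1 came nearest to a call in HCC70. It was 10.6, 11.8 and 10.3 TPM among non-BCSCs and 13.2, 12.0 and 12.1 TPM in BCSCs, 1.14-fold higher without overlap, with an unadjusted limma p of 0.0455 and an adjusted p of 0.200. An exon stretch of 112 bases of NRF1 holds the 5S rRNA pseudogene RNA5SP244 on the same strand in GENCODE 44, and the TPM of that row averaged 5.53 ± 0.144 for non-BCSCs and 11.3 ± 2.39 for BCSCs (SD, n = 3). That row held only 6, 7 and 8 reads in non-BCSCs and 13, 20 and 14 in BCSCs. NRF1 held 386, 478 and 480 reads in non-BCSCs and 636, 576 and 483 in BCSCs. The part of RNA5SP244 in the NRF1 value was not tested. In Hs578T NRF1 averaged 6.53 ± 0.410 for non-BCSCs and 7.32 ± 0.627 TPM for BCSCs, with overlap. ESRRA had 1 library apart in each line. Hs578T BCSC replicate 2 had 33.4 TPM where the other 5 Hs578T libraries had 23.9 to 25.8, and HCC70 non-BCSC replicate 1 had 40.2 TPM where the others had 28.9 to 33.8. Without the Hs578T library the log2 fold change of ESRRA went from 0.17 to 0.05.

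Among the machinery of the mitochondrial genome, TFAM and POLRMT had estimates above 0 in Hs578T and below 0 in HCC70, while TFB2M was below 0 and POLG above 0 in both lines, and none passed. TFAM, which packages and transcribes mitochondrial DNA, was 31.7, 32.03 and 27.4 TPM among Hs578T non-BCSCs and 33.8, 33.1 and 32.7 TPM in BCSCs. In HCC70 it was 35.6, 30.8 and 32.7 TPM among non-BCSCs and 29.995, 28.2 and 30.4 TPM in BCSCs. The groups did not overlap in either line, higher in Hs578T BCSCs and lower in HCC70 BCSCs, but groups without overlap were common, at 29% of all genes in Hs578T and 30.9% in HCC70. The adjusted p of limma was 0.304 and 0.217. TFB2M, the transcription initiation factor, was 24.0 ± 1.58 and 23.7 ± 0.940 TPM in Hs578T and 38.5 ± 1.94 and 34.5 ± 2.94 TPM in HCC70, non-BCSCs given before BCSCs (SD, n = 3). POLRMT was 32.5 TPM in Hs578T BCSC replicate 2, the library that was also high for ESRRA, and 22.3 to 26.2 TPM in the other 5, and leaving that library out took its log2 fold change from 0.16 to 0.04. In HCC70 POLRMT was 7.87 ± 1.07 and 7.14 ± 0.372 TPM. POLG was 30.9 ± 1.65 and 31.8 ± 0.203 TPM in Hs578T and 26.5 ± 1.39 and 26.9 ± 0.826 TPM in HCC70, a difference smaller than the spread in both.

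The fission GTPase DNM1L was 98.6, 95.3 and 88.2 TPM among Hs578T non-BCSCs and 100.1, 100.5 and 106 TPM in BCSCs. The groups did not overlap, and the log2 fold change was 0.12 (SE 0.05, 95% CI -0.003 to 0.25, limma adjusted p = 0.235), while edgeR gave 0.14 with an adjusted p of 0.0409 and DESeq2 an adjusted p of 0.0253. The fusion GTPase OPA1 was 57.4, 55.4 and 51.3 TPM among non-BCSCs and 54.2, 53.9 and 54.4 TPM in BCSCs of the same line, with overlap. Within each library the ratio of OPA1 to DNM1L was 0.582, 0.581 and 0.582 in Hs578T non-BCSCs and 0.542, 0.536 and 0.511 in BCSCs. The non-BCSC ratios agreed to 0.000565 (SD) and all lay above those of BCSCs. In HCC70 the ratio was 1.96 to 2.15 in non-BCSCs and 2.02 to 2.31 in BCSCs, with overlap, and DNM1L was 51.6 ± 2.27 and 49.9 ± 0.550 TPM. With 3 libraries against 3 the smallest exact permutation p is 0.1, so the ratios are given as values with no call.

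**Figure D2:**
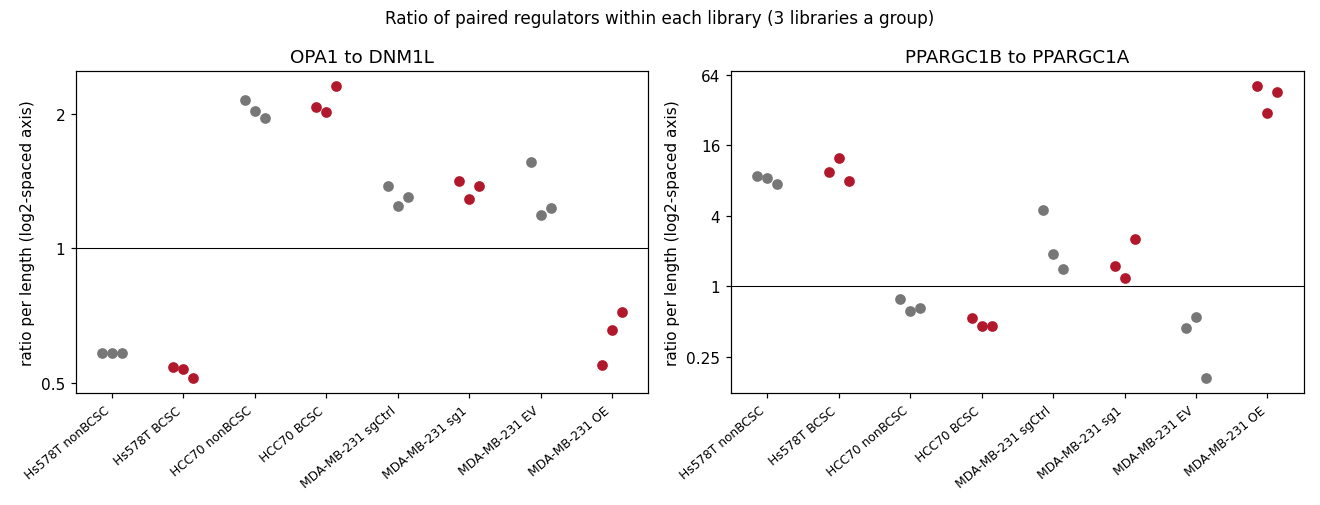
Ratio of OPA1 to DNM1L and of PPARGC1B to PPARGC1A within each library, on an axis spaced by log2, from TPM in sorted cells and from values per kb of exon in MDA-MB-231. Each group has 3 points, gray for the control and red for the compared group. OPA1 to DNM1L lies below 1 in Hs578T and in the libraries labelled KIF20A OE and above 1 in the other groups.

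The BCSC effect was compared between the lines by an interaction term in 12 sorted libraries. No regulator passed among 9 tested, against 7.11% of all genes, with 2 at an unadjusted p under 0.05, TFAM and DNM1L, against 26.8% of all genes. The effect on TFAM in HCC70 less that in Hs578T was -0.28 (SE 0.10, 95% CI -0.49 to -0.07, limma adjusted p = 0.091), and for DNM1L it was -0.17 (SE 0.07, limma adjusted p = 0.166). Scaling libraries by the median of ratios before the same limma test moved both below the threshold, with adjusted p values of 0.0311 and 0.0410. For ESRRA and POLRMT the term was -0.33 and -0.28, with adjusted p values of 0.200 and 0.272.

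The wider pathway held few calls by limma between BCSCs and non-BCSCs. Of all genes limma called 2.9% higher and 4.26% lower in Hs578T, and 2.28% higher and 0.552% lower in HCC70. In Hs578T 1 of 15 other biogenesis regulators tested rose, MYC, a transcription factor of growth and mitochondrial genes, from 81.0 ± 1.90 to 95.3 ± 3.99 TPM, and 0 fell. Among mitophagy genes 3 of 7 fell and 0 rose in Hs578T. These were BNIP3, a hypoxia-inducible mitophagy receptor, by 0.51 on the log2 scale, its homolog BNIP3L by 0.25 and the kinase PINK1 by 0.20 (limma adjusted p = 0.00261, 0.0317 and 0.0430). PHB2, an inner membrane prohibitin, was the only riser among 9 genes of fusion and the inner membrane (log2 fold change 0.24), and GDAP1, an outer membrane protein of fission, fell by 0.37. By limma no gene among 12 of the mitochondrial DNA machinery or 9 of protein import passed in Hs578T. On recovered reads edgeR and DESeq2 each called 3 of the 9 protein import genes higher, beside 813 and 737 higher of 13324 genes. Each also called 2 of the 15 other biogenesis regulators higher. In HCC70 the only gene of these lists called by limma was MFN2, the outer membrane fusion GTPase. MFN2 rose from 121 ± 6.401 to 147 ± 2.25 TPM (log2 fold change 0.27, limma adjusted p = 0.0474). It was not called after scaling by the median of ratios, nor was PINK1 in Hs578T. On recovered reads of HCC70 edgeR and DESeq2 each called 1 of 9 fission genes lower, beside 274 and 532 lower of 13218 genes. edgeR also called 1 of 16 other biogenesis regulators higher, beside 441 of all genes.

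The OXPHOS subunits, with which the regulators were compared, held few calls by limma. Of 78 nuclear subunits tested in Hs578T 0 rose and 3 fell, where 2.9% of all genes were called higher and 4.26% lower. The 3 were the complex I subunits NDUFA12, NDUFS5 and NDUFB2. The subunits had a median log2 fold change of -0.03 beside -0.01 for all genes. That median was 0.00064 after scaling by the median of ratios and -0.0057 by edgeR. The median of the regulators was 0.12 over 9 genes. In HCC70 0 of 78 rose and 2 fell, where 2.28% of all genes were called higher and 0.552% lower. These were ATP5F1D of ATP synthase, by 0.71, and NDUFB7 of complex I, by 0.61. The median of the subunits was -0.03 beside 0.02 for all genes and -0.08 for the regulators. NDUFB7 was not called after scaling by the median of ratios (limma adjusted p = 0.0537). On recovered reads edgeR called 0 of the 78 subunits higher and 8 lower in HCC70, beside 441 higher and 274 lower of 13218 genes. DESeq2 called 1 subunit higher and 12 lower, beside 635 and 532 of the 13218 genes. Few calls thus describes limma only in HCC70.

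In KIF20A-depleted cells the regulators did not pass the threshold. No gene of the genome passed (0% called), with 899 of 12852 (7%) at an unadjusted p under 0.05 by limma, among them 1 regulator. edgeR also called 0 genes, with 972 at an unadjusted p under 0.05, and DESeq2 called 11, none a regulator. All 10 regulators overlapped between groups, where 13% of genes did not. The estimate was above 0 for 6 of 10 regulators (50.4% of all genes) and below 0 for 4 (49.6%).

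ESRRA had the lowest unadjusted p of the 10. It was 83.5, 82.1 and 59.7 deposited CPM with sgCtrl and 55.9, 47.1 and 64.2 with sg1, with a log2 fold change of -0.42 (SE 0.16, 95% CI -0.78 to -0.06). Its limma adjusted p was 0.69 and its unadjusted limma p 0.0259, and the exact permutation test gave p = 0.2. The overlap came from sgCtrl replicate 3, which was below sg1 replicate 3. Its exons share 284 bases with TRMT112, a methyltransferase activator on the opposite strand, and TRMT112 was 124, 125 and 95.9 deposited CPM with sgCtrl and 82.2, 80.2 and 76.0 with sg1. Whether reads were assigned by strand was not given in the sources used here, and the part of TRMT112 reads was not tested. Without sgCtrl replicate 3 limma called 144 genes, yet the adjusted p of ESRRA was 0.0721.

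Both membrane GTPases had positive estimates with sg1. OPA1 was 148, 141 and 183 deposited CPM with sgCtrl against 182, 192 and 184 with sg1 (log2 fold change 0.25, 95% CI -0.03 to 0.53), and DNM1L was 95.8, 101 and 125 against 115, 133 and 119 (0.19, 95% CI -0.10 to 0.48). Neither passed (limma adjusted p = 0.695 and 0.756), and their ratio per kb of exon was 1.25 to 1.38 with sgCtrl and 1.29 to 1.41 with sg1. sgCtrl replicate 3 was again the control nearest to sg1 in both genes.

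TFAM was 120, 116 and 162 deposited CPM with sgCtrl and 128, 134 and 143 with sg1, a log2 fold change of 0.04 with a 95% CI of -0.27 to 0.35. The interval leaves room for differences of 0.828-fold to 1.28-fold. TFB2M and NRF1 had estimates of 0.06 and 0.08, POLG and POLRMT of -0.18 and -0.19. The coactivators varied most between replicates. PPARGC1A was 1.97, 3.61 and 4.81 deposited CPM with sgCtrl and 3.51, 4.52 and 3.91 with sg1, and PPARGC1B was 10.5, 8.01 and 7.96 against 6.19, 6.33 and 11.7.

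In the depletion experiment the subunits lay mostly below 0, while the regulators fell on both sides. The median log2 fold change of 77 nuclear subunits was -0.16, with 67 below 0 and 0 called, beside 0.002 for all genes. It was 0.05 for the 10 regulators, 6 of which were above 0 (50.4% of all genes). With 1 library left out the subunit median was -0.20 to -0.12. That of the regulators was -0.04 without sgCtrl replicate 1, with 2 above 0 and 8 below. It was -0.007 without sgCtrl replicate 2 and -0.009 without sg1 replicate 3. For 26 of the 77 subunits every sg1 library lay below every sgCtrl library, as it did for 938 of all 12852 genes. Every sg1 library lay above every sgCtrl library for 0 subunits and for 737 of all genes. The table of this experiment also held the 13 subunits encoded by mitochondrial DNA, the direct products of POLRMT, TFAM and TFB2M. All 13 had positive estimates, with a median of 0.65 and 0 called, but their level depended on the library more than on the group. Relative to the sgCtrl mean, the median of the 13 was 0.92, -0.28 and -0.64 (log2) in the sgCtrl libraries and 0.67, 0.13 and 1.31 in the sg1 libraries. MT-CO1, a catalytic subunit of complex IV, was 6006, 2723 and 2408 deposited CPM with sgCtrl and 5078, 3477 and 8416 with sg1. In the same libraries the median of the regulators was -0.10, 0.01 and 0.16 with sgCtrl and -0.06, 0.03 and 0.15 with sg1. The sgCtrl library with the most mitochondrial transcripts thus had low regulators, and the sg1 library with the most had high ones.

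**Figure D3:**
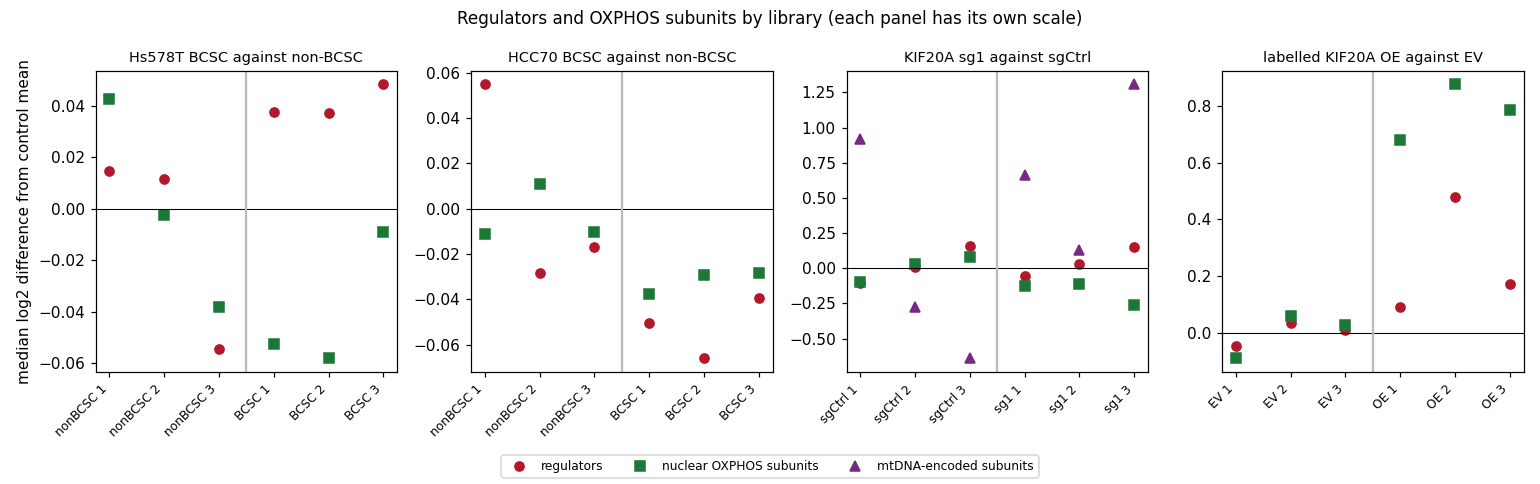
Median log2 difference from the control mean in each library, for the regulators (red circles), nuclear OXPHOS subunits (green squares) and, where the table held them, subunits encoded by mitochondrial DNA (purple triangles). Controls are left of the gray line, and each panel has its own scale. In the depletion experiment the mitochondrial subunits span -0.64 to 1.31 over the libraries, while the regulators stay between -0.10 and 0.16.

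The libraries labelled KIF20A OE differed from EV in 6 of the 10 regulators, 4 higher and 2 lower, with 69.7% of all genes called, so the share is near the background. Of all genes 46.2% were called higher and 23.4% lower, and 63.4% had an estimate above 0 and 36.6% below 0, as did 7 and 3 of the regulators. The groups did not overlap for 7 of 10, against 74.1% of all genes, and 7 of 10 had an unadjusted p under 0.05, against 72.2%. The median of all genes was 0.37 above 0 on the log2 scale and dropped by 0.35 when libraries were scaled by the median of ratios, which changed the calls from 7055 higher and 3579 lower to 5135 and 5013. Log2 fold changes below are therefore to be read against that median. Less that median, they were 3.64 for PPARGC1B, -1.91 for PPARGC1A, -0.35 for TFAM and -0.23 for TFB2M. They were -0.48 for ESRRA, -0.82 for OPA1 and 0.21 for DNM1L, and POLRMT, POLG and NRF1 are set against it below.

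The coactivators moved apart. PPARGC1B was 2.05, 2.37 and 1.35 CPM with EV, from 43, 49 and 23 reads, and 42.3, 52.1 and 43.4 CPM with the OE label, from 676, 1156 and 810 reads. It was 23.9-fold higher by the means, with a log2 fold change of 4.02 (SE 0.20, 95% CI 3.55 to 4.48, limma adjusted p = 1.01e-06), higher than 97.4% of all genes. PPARGC1A was 3.90, 3.67 and 7.00 CPM with EV and 0.689, 1.44 and 0.803 CPM with the OE label, from 11, 32 and 15 reads. It fell by 1.54 on the log2 scale (SE 0.27, limma adjusted p = 0.00105), and its log2 fold change was -2.63 by edgeR on recovered reads. The ratio of PPARGC1B to PPARGC1A per kb of exon was 0.163 to 0.544 with EV and 30.5 to 51.8 with the OE label. Their order also differed between the control sets of the same line, since the ratio was 1.40 to 4.49 with sgCtrl, where PPARGC1B was 7.96 to 10.5 deposited CPM.

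The polymerases rose. POLRMT was 69.7, 62.9 and 57.8 CPM with EV and 157, 228 and 173 CPM with the OE label, 2.93-fold higher (log2 fold change 1.52, SE 0.16, limma adjusted p = 5.77e-05) and 1.15 above the median of all genes. POLG was 78.2, 71.6 and 87.7 CPM with EV and 176, 140 and 172 CPM with the OE label, 2.06-fold higher (log2 fold change 1.03, SE 0.14, limma adjusted p = 0.000224) and 0.65 above the median of all genes. Its log2 fold change was 0.66 after scaling by the median of ratios, and it was still called. Exons of POLG share 458 bases with FANCI, a DNA repair gene on the opposite strand that was 67.2 ± 17.2 CPM with EV and 231 ± 36.9 CPM with the OE label (SD, n = 3), and 783 bases with POLGARF on the same strand. Their part in the POLG value was not tested. By contrast TFAM was 94.5, 143 and 117 CPM with EV and 103, 136 and 119 CPM with the OE label, a log2 fold change of 0.02 that became -0.34 after scaling by the median of ratios, and TFB2M was 0.15 and became -0.20, with no call under either scaling. The highest POLRMT was in OE replicate 2, the library with the lowest KIF20A of the 3 (269 CPM). That library also had the highest PPARGC1A, PPARGC1B, TFAM, TFB2M and NRF1 and the lowest POLG, DNM1L and ESRRA of the 3. Whether any of these follows KIF20A was not tested.

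NRF1 was 22.4, 24.2 and 23.7 CPM with EV and 27.5, 37.6 and 28.2 CPM with the OE label, without overlap, and its log2 fold change of 0.38 equalled the median of all genes to within 0.01 (limma adjusted p = 0.0638). It became 0.03 after scaling by the median of ratios. ESRRA was 63.9, 53.0 and 45.5 CPM with EV and 52.0, 47.1 and 50.002 CPM with the OE label, with an estimate of -0.11 that became -0.47 (limma adjusted p = 0.0343) after that scaling.

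OPA1 and DNM1L moved in opposite directions. OPA1 was 149.6, 159.6 and 150.6 CPM with EV and 98.9, 107 and 132 CPM with the OE label and fell by 0.45 (SE 0.13, limma adjusted p = 0.0146), or by 0.81 after scaling by the median of ratios. Without OE replicate 1 it was -0.36 and no longer called (limma adjusted p = 0.0537). DNM1L was 85.6, 120 and 109 CPM with EV and 161, 145 and 164 CPM with the OE label and rose by 0.59 (SE 0.14, limma adjusted p = 0.00665), but after scaling by the median of ratios it was 0.22 and not called. The ratio of OPA1 to DNM1L per kb of exon, which does not depend on scaling, was 1.18 to 1.56 with EV and 0.548 to 0.719 with the OE label. Of the genes of proteases that cleave OPA1, OMA1 rose by 1.57 and YME1L1 fell by 0.60 on the log2 scale. Both kept their direction and call after the other scaling, but 69.7% of all genes were called here. Whether either bears on OPA1 was not tested.

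**Figure D4:**
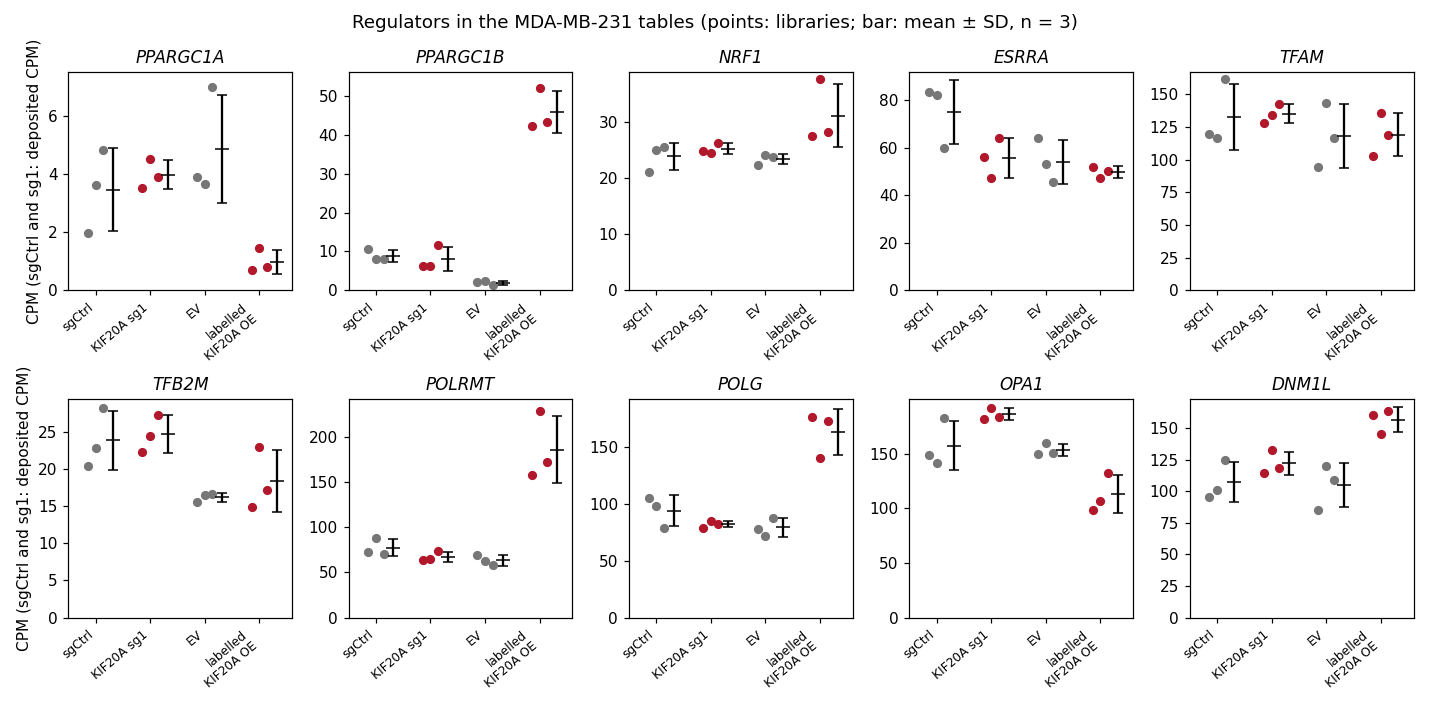
CPM of the 10 regulators in MDA-MB-231 tables, with 1 point a library and the mean ± SD of 3 libraries beside it. Gray points are controls and red points the sg1 libraries or the libraries labelled KIF20A OE, and the experiments were normalized separately. PPARGC1B lies at 42.3 to 52.1 CPM in the libraries labelled KIF20A OE and below 12 in all other groups.

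The lists of other pathway genes in the libraries labelled KIF20A OE are to be read against the 46.2% of all genes called higher and 23.4% called lower, or 5135 and 5013 of 15202 genes after scaling by the median of ratios. Of 12 genes of the mitochondrial DNA machinery 8 rose and 0 fell, led by the helicase TWNK (1.39), the single-strand binding protein SSBP1 (1.31) and MTERF4 (1.23), and 6 rose after scaling by the median of ratios. Of 9 protein import genes 9 rose, among them TOMM22 (1.76), HSPD1 (1.73) and TOMM20 (1.70), but 3 after that scaling. Of 16 other biogenesis regulators 8 rose and 2 fell, the AMPK catalytic subunits in opposite directions, with PRKAA2 at 1.86 and PRKAA1 at -1.04, and 6 rose and 4 fell after that scaling. ESRRG, a receptor related to ESRRA, rose from 0.383 ± 0.248 to 3.76 ± 0.298 CPM. Of 8 fission genes 4 rose, including the DNM1L receptor MIEF1 (1.68), and 2 fell, INF2 by 1.65 and DNM2 by 0.89. Of 9 genes of fusion and the inner membrane 4 rose and 1 fell, against 4 and 4 after scaling by the median of ratios. Among mitophagy genes the receptor FUNDC1 rose (1.63) and 5 fell, with BNIP3L at -1.54, BNIP3 at -1.31 and SQSTM1 at -1.07.

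The subunits stood above the regulators here. Of 75 nuclear subunits tested 61 rose and 1 fell, with a median log2 fold change of 0.74 beside 0.37 for all genes and 0.27 for the regulators. After scaling by the median of ratios 41 rose and 6 fell, and the medians were 0.39 for subunits, 0.03 for all genes and -0.09 for the regulators. NDUFB9 (2.02), NDUFB10 (1.80) and ATP5ME (1.54) rose most, and NDUFS4 of complex I fell by 0.53. Subunits encoded by mitochondrial DNA were not listed in this table or in those of the sorted lines.

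**Figure D5:**
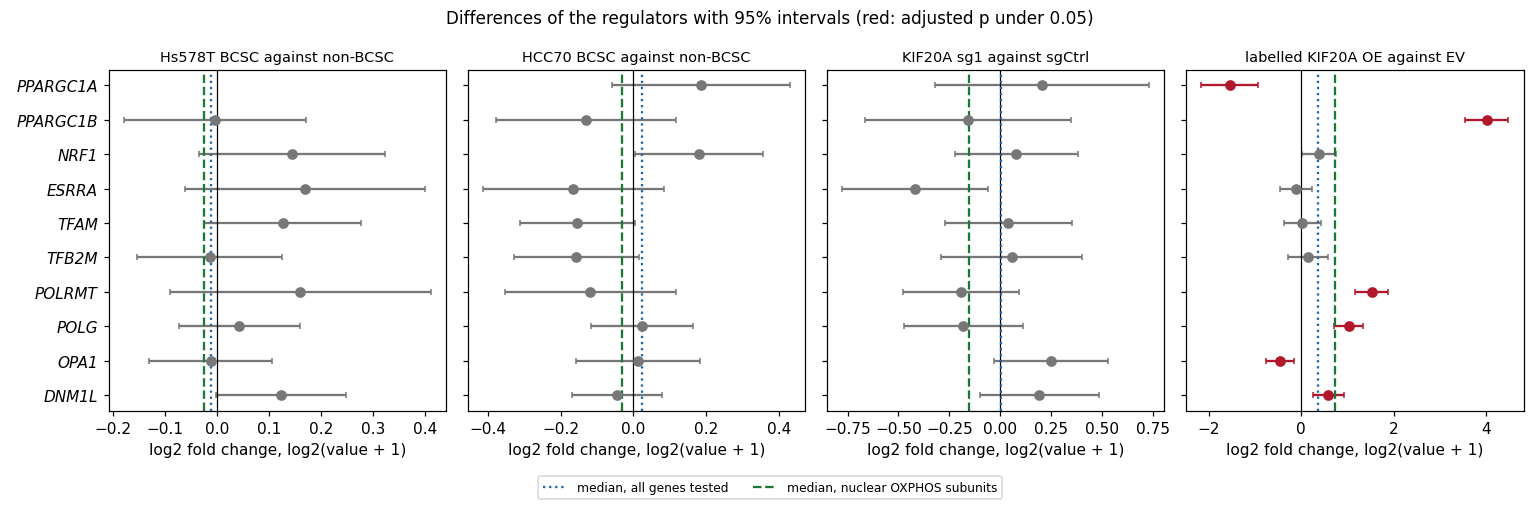
Log2 fold changes on the log2(value + 1) scale with 95% intervals by limma, red where the adjusted p is under 0.05. The dotted line is the median of all genes tested and the dashed line that of the nuclear OXPHOS subunits, and the horizontal scale differs between panels. The 6 red points are all in the comparison labelled KIF20A OE against EV.

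Per kb of exon, TFAM was the highest of the 10 in MDA-MB-231 with sgCtrl, sg1 and EV (22.3 to 25.5 CPM per kb by the group means), and POLRMT was the highest with the OE label (36.8). In sgCtrl and EV libraries ESRRA overlapped with both its neighbors, TFAM and OPA1, while NRF1 was the eighth and the coactivators were the lowest in all 4 groups, at or below 0.685 except PPARGC1B with the OE label (3.56).

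The genes whose values followed a regulator most closely over the 6 libraries of each table were sought among 9311 genes, as a description, for 9 regulators. PPARGC1A, which was not tested in Hs578T, was left out. The nearest to TFB2M was MTERF3, another factor of mitochondrial transcription, with a mean Pearson r of 0.91 over the 4 tables (lowest 0.87), followed by MRPL32 and CBX3. OPA1 was nearest to PRKAA1 (0.94, lowest 0.84), EFR3A and PAK2, DNM1L to HSPA4 (0.91), YTHDC2 and SUV39H2, and POLRMT to CDC34 (0.93), LRWD1 and METRN. For TFAM it was CCT6A (0.88), DIMT1 and BLOC1S6, for PPARGC1B UBE2G2 (0.89), HOMER1 and FAM136A, and for NRF1 MMACHC (0.86), CSNK2A1 and NUP93. ESRRA was nearest to LSM14B (0.84), PIP5KL1 and MAP3K11 and POLG to DNMT3A (0.82), ATG4B and AARS2. The points of a table share libraries and scaling, and in the table of the OE label they fall into the groups.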

How the data were processed

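RNA-Seq of 24 libraries was analyzed from the tables that the authors deposited. Per the submitters' processing notes, HISAT2 2.0.5 and featureCounts 1.5.0-p3 were used, and paired-end, poly-A reads were aligned to GRCh38. For the sorted lines the values deposited are TPM made by the authors, although named counts. Values deposited for the sgRNA set are a signal, reads divided by 1 factor per library, called deposited CPM here because the authors name it so, and its columns sum to 977394 to 1028620. For the EV and OE set the authors deposited CPM. In the sorted groups the noncoding RNAs RMRP and RPPH1 averaged 53975 to 101343 and 26796 to 65202 TPM. They were at 0 with sgCtrl and sg1 and at no more than 0.803 CPM with EV and the OE label. RPPH1 averaged 65202 TPM in HCC70 non-BCSCs and 44414 in BCSCs, which changes the TPM left for other genes. Whether the sorted libraries were prepared like the others was not tested. Per-sample columns left unused numbered 0.

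Genes averaging 1 or more across the 6 libraries compared were tested by limma 3.58.1 (R 4.3.3) with a trend on log2(value + 1), two-sided, with Benjamini-Hochberg adjustment over all genes tested and a threshold of 0.05. The pseudocount makes fold changes of low genes too small. The study used DESeq2, which needs counts, so edgeR 4.0.16 and DESeq2 1.42.0 were run as alternatives on whole reads recovered from the steps between values (100% whole within 0.01). Tested on simulated data, recovery from TPM was exact for 97.8% of genes and otherwise too low by a common divisor, and limma called 195, 193, 198 and 200 of 200 genes changed by 2-fold, with 9.30%, 6.76%, 2.94% and 3.38% false calls. The simulated libraries of every table had the same spread between replicates, and only genes above a minimum of reads were changed. In the data the spread differed. The chi-square per gene between replicates was 37.5 to 131 in the sgRNA set and 2.02 to 16.0 in the sorted lines. The simulated calls therefore do not give the power of the test with sg1. The reads give the precision by counting only. Locations, exon lengths and overlaps came from GENCODE 44, lists were matched through RefSeq synonyms, and levels per kb use merged exons. Named genes were the 10 regulators, KIF20A, up to 3 risers and 3 fallers of each list, and the 3 nearest genes. RNA5SP244, TRMT112, FANCI, RMRP and RPPH1 were added after their values were seen. One gene that this rule names is not reported here. The regulators and lists were chosen with earlier results of these data known.

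Replicate numbers came from the titles. Deviations of same-numbered libraries had correlations of -0.16 to 0.19, against -0.22 to 0.28 for libraries of different numbers. With 3 libraries a group this cannot exclude pairing. The main fit took the samples as unpaired, and a fit with the number as a block is given below. Replicates of each group differed beyond sampling noise. The labels call them separate samples, and p-values measure the spread between them.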

Additional observations from a re-analysis of the deposited data

Results flagged for a closer look

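TFAM stood out because all Hs578T BCSC libraries were above, and all HCC70 BCSC libraries below, the non-BCSC libraries of their line. The BCSC effect in HCC70 less that in Hs578T was -0.28 on the log2 scale, with a limma adjusted p of 0.091, so the tested difference did not pass. With each of the 12 libraries left out in turn it was -0.33 to -0.21. Line and batch cannot be told apart here.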

How the results depend on the processing

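Of the regulators' values under alternatives, 588 kept their direction and side of the threshold, 50 changed sign, 7 gained a call and 4 lost one. In Hs578T edgeR and DESeq2 called 1 regulator each, and scaling by the median of ratios called 2 in the interaction; the cause was not tested. The OXPHOS median in Hs578T was 0.00064 (median of ratios), -0.0057 (edgeR) and -0.0058 (DESeq2) against -0.03 as reported, and that in HCC70 was -0.05972 (median of ratios), -0.05205 (edgeR) and -0.05924 (DESeq2), and -0.05209 to -0.03351 with 1 library left out. With the OE label this median was 0.3873, 0.4241 and 0.4247 in that order of settings, and 0.682 to 0.8377 with 1 library left out, where 5 to 6 regulators were called. In the same order, estimates changed sign in Hs578T for PPARGC1B (0.01673, 0.0165, 0.01639), TFB2M (0.01147, 0.005247, 0.00516) and OPA1 (0.01386, 0.007618, 0.007536), in HCC70 for OPA1 (-0.01484, -0.008656, -0.01589) and POLG (-0.003999 by the median of ratios, -0.006026 by DESeq2), with the OE label for TFAM (-0.3406, -0.3366, -0.3354) and TFB2M (-0.1989, -0.172, -0.1707), and in the interaction by the median of ratios for NRF1 (-0.01147) and OPA1 (-0.02735). With 1 library left out, ranges crossed 0 in Hs578T for PPARGC1B (-0.03128 to 0.03209), TFB2M (-0.06382 to 0.0273) and OPA1 (-0.05713 to 0.02212). They did so in HCC70 for POLG (-0.00236 to 0.06442) and OPA1 (-0.04312 to 0.06668), and with sg1 for PPARGC1A (-0.06042 to 0.423), TFAM (-0.04557 to 0.1896), TFB2M (-0.04292 to 0.1809) and NRF1 (-0.001892 to 0.1262). With the OE label they did so for TFAM (-0.1256 to 0.1711), TFB2M (-0.01769 to 0.2818) and ESRRA (-0.2248 to 0.01687), and in the interaction for NRF1 (-0.0242 to 0.08913), POLG (-0.06129 to 0.02242) and OPA1 (-0.03035 to 0.07945). The median of ratios, edgeR and DESeq2 left DNM1L uncalled with the OE label (0.221, 0.2303 and 0.2314) and called ESRRA (-0.4685, -0.4794 and -0.4808).

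Counts over all genes moved more. In Hs578T 953 became 1646 (edgeR) and 343 to 865 with 1 library left out. In HCC70 374 became 178 without a filter, 233 by the median of ratios, 715 (edgeR), 1167 (DESeq2) and 32 to 270 with 1 library left out. With sg1 0 became 11 (DESeq2), 144 without sgCtrl replicate 3 and 5 without sg1 replicate 2, and in the interaction 830 became 291 to 1225 with 1 library left out. The fit with the replicate number as a block called 0, 0, 0 and 6 regulators and 0 in the interaction, as without it, while its calls over all genes were 669 in Hs578T, 128 in HCC70, 0 with sg1, 10545 with the OE label and 302 in the interaction. Depth limits PPARGC1A most, with 21 to 35 reads in Hs578T and 11 to 32 with the OE label.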
